A study of Mus musculus with 10 samples.

Results

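The cadherins Cdh1, Cdh2 and Cdh3, the catenins Ctnna1, Ctnnb1 and Ctnnd1, the nectin adaptor Afdn and the adhesion molecule Epcam were followed by name through RNA sequencing of 10 mouse mammary carcinoma lines, 1 library each. These are 8 of the 55417 named genes of the deposited table, and 7 of them passed the filter on low counts that left 19935 genes for testing. Cdh2 did not pass. The metastasis lines 3, 5 and 7 came from lung metastases, the CTC lines 1, 3 and 6 from circulating tumour cells, and the primary lines 5, 7 and 8 from fat pad xenografts, each number being the one in the library's title. All 9 were grown in NSG mice (NOD-SCID-GAMMA), an immunodeficient host, and the labels trace every one of the 9 to CTCs taken out of NSG mice with orthotopic 4T1-hHER2-Luc tumours, a wording that covers the primary lines too. The parental line 4T1-hHER2 (strain label BALB/cfC3H) is a 4T1 mammary carcinoma line given human HER2 and luciferase by lentivirus, a modification that the derived lines share. The age of the mice and whether a line is 1 clone are not given in the sources used here. Separate mice are not stated for lines of a group either, so each p-value reflects the spread among these particular lines and no more.

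Cadherins are calcium-dependent receptors that bind the same cadherin on a neighbouring cell and build the adherens junction, the belt that holds epithelial cells together. Their tails carry p120-catenin (Ctnnd1), which keeps them at the surface, and beta-catenin (Ctnnb1), which also serves the Wnt pathway in the nucleus, and alpha-catenin (Ctnna1) ties the complex to actin. Afadin (Afdn) links nectins, a second set of junction receptors, to actin, and Epcam is an adhesion molecule of simple epithelia and many carcinomas. In carcinomas, loss of Cdh1 with gain of Cdh2 is a textbook mark of epithelial-mesenchymal transition.

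Total counts were 79869760 to 97722716 per library. The epithelial keratin Krt18 was present in every library, at up to 1460 CPM (the count scaled by library size and TMM factor). The summed level of 6 mammary epithelial markers (Krt7, Krt8, Krt18, Krt19, Cldn3 and Cldn7) was 787 to 2810 CPM in metastasis, 1330 to 2590 CPM in CTC, 1920 to 2990 CPM in primary lines and 890 CPM in the parental line. The summed level of 3 blood cell markers was at most 0.232 CPM in any line, that of 3 adipocyte markers at most 0.055 CPM, that of 3 macrophage markers at most 7.17 CPM (CTC 6, nearly all Cd68) and that of 5 lung epithelial markers at most 4.33 CPM (a primary line, with at most 2 CPM in metastasis lines). Mouse Erbb2 was at 42.6 to 60.3 CPM in metastasis, 25.9 to 52.6 CPM in CTC, 33.4 to 52.3 CPM in primary lines and 34.8 CPM in the parental line.

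Promoter sequences from RefSeq (GRCm38.p6, 250 bases before to 50 after an annotated start) were examined for 4 of the 8 genes. The genes examined were Afdn, Ctnnb1, Ctnnd1 and Epcam, while the promoters of Cdh1, Cdh2, Cdh3 and Ctnna1 were not examined. The sequences of Epcam and Afdn are shown because these 2 genes separated the primary lines from the others most clearly below. Capitals mark the letters CAGGTG or CACCTG, each the reverse complement of the other, which is the core that repressors of the Snail and Zeb families are known to bind in the Cdh1 promoter.
Epcam, chr17:87635729-87636028, plus strand: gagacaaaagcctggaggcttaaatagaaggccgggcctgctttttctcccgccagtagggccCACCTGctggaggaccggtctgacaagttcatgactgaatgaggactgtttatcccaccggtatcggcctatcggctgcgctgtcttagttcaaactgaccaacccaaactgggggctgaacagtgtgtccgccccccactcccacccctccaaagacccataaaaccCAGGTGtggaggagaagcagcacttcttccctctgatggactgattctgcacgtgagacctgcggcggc
Afdn, chr17:13760291-13760590, plus strand: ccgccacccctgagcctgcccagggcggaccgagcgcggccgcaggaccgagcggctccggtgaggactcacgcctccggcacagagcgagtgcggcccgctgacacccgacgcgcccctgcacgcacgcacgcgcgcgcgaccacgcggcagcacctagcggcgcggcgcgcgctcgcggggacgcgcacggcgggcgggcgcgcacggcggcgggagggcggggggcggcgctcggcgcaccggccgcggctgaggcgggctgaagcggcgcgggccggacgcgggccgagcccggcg

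The Epcam window holds the letters at 2 places, starting at -187 and -19 from the annotated start, and the Afdn, Ctnnb1 and Ctnnd1 windows hold none. Of all 32851 promoter windows of this length in the table, 6640 (20.2%) hold them. The Afdn window is 83.3% G and C with 62 CG pairs, and the Epcam window is 57.0% G and C with 11 CG pairs. A match describes letters and is not a site.

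Afdn gave the widest gap among the 8 genes. It lies on chromosome 17 (ENSMUSG00000068036.15, GRCm38, chr17:13760539-13906150, plus strand). Its level was 14.7, 14.1 and 11.3 CPM in metastasis lines 3, 5 and 7, and 15.3, 10.5 and 20.8 CPM in CTC lines 1, 3 and 6. In primary lines 5, 7 and 8 it was 46.9, 253 and 209 CPM, and in the parental line 70.6 CPM. All 6 metastasis and CTC lines were thus below all 3 primary lines and below the parental line, and primary 5 was the lowest primary line. In bulk RNA, fewer cells that express a gene and less RNA per cell cannot be told apart.

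Without reaching the threshold, the log2 change of Afdn was -3.67 (SE 0.59) in metastasis against primary, with a Benjamini-Hochberg adjusted p of 0.36 in the quasi-likelihood test of edgeR. In CTC against primary it was -3.45 (SE 0.585, edgeR adjusted p 0.72). In CTC and metastasis lines together against primary it was -3.56 (SE 0.45, edgeR adjusted p 0.151), the third smallest p of the 19935 genes. Metastasis and CTC lines differed by -0.22 (SE 0.53, edgeR adjusted p 1), and their ranges overlapped. Without primary 5, Afdn passed in metastasis against primary (log2 change -4.11, edgeR adjusted p 0.0429) and in CTC and metastasis together against primary (-4.0, edgeR adjusted p 0.00721). Those fits without primary 5 called 1 and 3 genes in all. Primary 5 had the lowest Afdn of the primary lines, so leaving it out widens the gap. Over all fits that each left out 1 derived line, the edgeR adjusted p ran from 0.0429 to 0.943 in metastasis against primary. For CTC and metastasis together against primary it ran from 0.00721 to 0.622. DESeq2 called Afdn in metastasis against primary (adjusted p 7.79e-07, among 130 genes), CTC against primary (6.33e-06, among 68) and the 2 groups together against primary (8.19e-09, among 148), where edgeR called 0 genes in each.

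Epcam lay on the same side. It is on chromosome 17 as well (ENSMUSG00000045394.9, chr17:87635979-87651129, plus strand). Its level was 30.0, 21.9 and 47.0 CPM in metastasis lines 3, 5 and 7, and 16.5, 15.7 and 39.7 CPM in CTC lines 1, 3 and 6. In primary lines 5, 7 and 8 it was 56.3, 204 and 134 CPM, and in the parental line 56.0 CPM. Again all 6 metastasis and CTC lines were below the 3 primary lines and the parental line, with metastasis 7 the closest to them.

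The log2 change of Epcam was -1.99 (SE 0.56, edgeR adjusted p 0.594) in metastasis against primary and -2.45 (SE 0.565, edgeR adjusted p 0.994) in CTC against primary. For CTC and metastasis together against primary it was -2.22 (SE 0.45, edgeR adjusted p 0.504). DESeq2 called it in CTC against primary (adjusted p 0.0144) and in the 2 groups together against primary (0.00425). Non-overlap alone was uncommon in that comparison: 309 of 19935 genes (1.55%) had every CTC and metastasis line below every primary line, and Afdn and Epcam were among them while the other 5 tested members were not. In the groups taken singly, 7.27% of genes had all metastasis lines and 4.02% all CTC lines below all primary lines. With CTC and metastasis together, edgeR called 0 genes (0%), and 1513 (7.59%) had an unadjusted p under 0.05, among them Afdn, Epcam and Cdh1. By limma-voom 2 genes were called (also 2 with a random replicate block) and by DESeq2 148, with no member among the limma-voom calls.

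**Figure D1:**
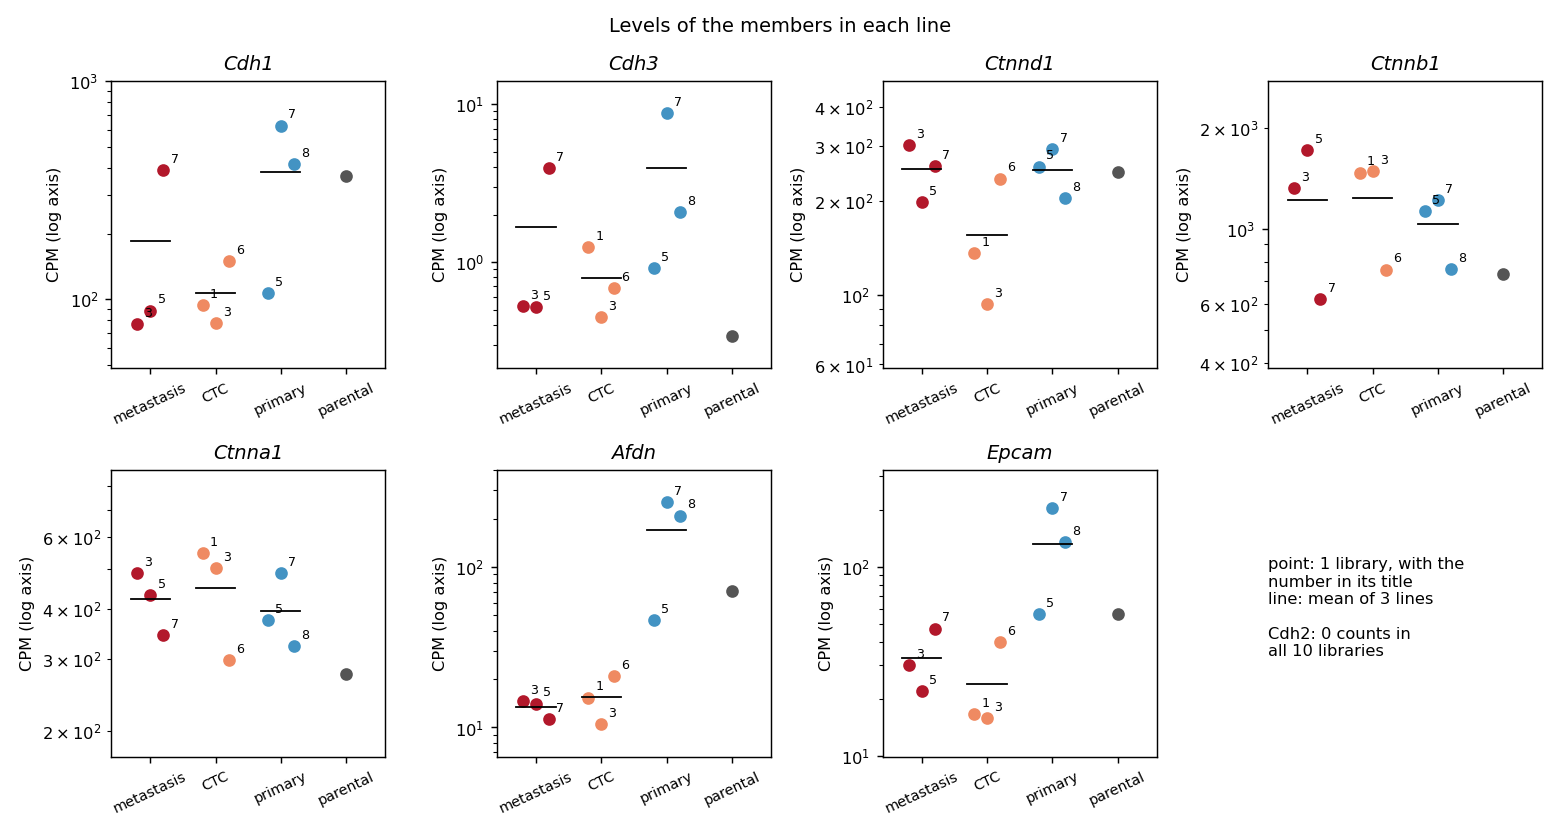
CPM of the 7 detected genes on log axes in the metastasis, CTC, primary and parental lines, each point 1 library with its number and each bar the mean of 3 lines. Afdn lies between 10.5 and 20.8 CPM in the CTC and metastasis lines and between 46.9 and 253 CPM in the primary lines, while the catenins overlap between the groups.

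Cdh1, which encodes E-cadherin, the main cadherin of epithelia, overlapped between the groups. It is on chromosome 8 (ENSMUSG00000000303.12, chr8:106603351-106670246, plus strand). Its level was 77.3, 88.7 and 391 CPM in metastasis lines 3, 5 and 7 and 94.2, 77.7 and 150 CPM in CTC lines 1, 3 and 6. Primary lines 5, 7 and 8 had 107, 627 and 419 CPM, and the parental line had 366 CPM. Metastasis 7 lay between the parental line and primary 8, and primary 5 was below CTC 6. The mean was 186 ± 178 CPM in metastasis, 107 ± 38 CPM in CTC and 384 ± 262 CPM in primary lines (SD, n = 3 each). The log2 change was -1.05 (SE 0.75, edgeR adjusted p 0.659) in metastasis against primary and -1.84 (SE 0.76, edgeR adjusted p 0.994) in CTC against primary. Without metastasis 7 the first of these was -2.21. With title numbers as a fixed replicate block they were -0.47 and -0.44, the second resting on CTC 3 alone of the CTC lines.

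Cdh3, which encodes P-cadherin of basal and myoepithelial cells, was low in every line. It lies upstream of Cdh1 on the same strand (ENSMUSG00000061048.8, chr8:106510891-106557297). Its level was 0.524, 0.52 and 3.95 CPM in metastasis lines 3, 5 and 7, 1.24, 0.449 and 0.686 CPM in CTC lines 1, 3 and 6, 0.92, 8.76 and 2.08 CPM in primary lines 5, 7 and 8, and 0.34 CPM in the parental line. Its highest lines, primary 7 and metastasis 7, were also high in Cdh1, but the parental line, at 366 CPM of Cdh1, had the lowest Cdh3. The log2 change was -1.23 (SE 1.02, edgeR adjusted p 0.701) in metastasis against primary and -2.30 (SE 1.05, edgeR adjusted p 0.994) in CTC against primary. Without primary 7 the first was 0.18, so its direction rested on that line. The fixed replicate block gave -1.19 for the second, with CTC 3 the only CTC line that informs it.

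Cdh2, which encodes N-cadherin, had 0 counts in all 10 libraries. A count of 0 allows up to 3 counts, or 0.039 to 0.0465 CPM depending on the library, a limit that covers counting error only. In this annotation Cdh2 spans chr18:16588877-16809246 on the minus strand (ENSMUSG00000024304.14) with 3 transcripts, each also at 0. No Cdh2 was therefore detectable in the metastasis, CTC or primary lines with low Cdh1.

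The catenins were abundant, and all 3 overlapped between the metastasis, CTC and primary lines. Ctnnb1 (ENSMUSG00000006932.17, chr9:120929216-120960507, plus strand) was at 1324, 1718 and 618 CPM in metastasis lines 3, 5 and 7 and at 1471, 1487 and 758 CPM in CTC lines 1, 3 and 6. In primary lines 5, 7 and 8 it was at 1128, 1219 and 759 CPM, and in the parental line at 737 CPM. Metastasis 7, the line with the most Cdh1 outside the primary group, had the least Ctnnb1. The log2 change was 0.24 (SE 0.41, edgeR adjusted p 0.868) in metastasis against primary and 0.26 (SE 0.41, edgeR adjusted p 0.994) in CTC against primary.

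Ctnna1 (ENSMUSG00000037815.7, chr18:35118859-35254779, plus strand) was at 489, 432 and 344 CPM in metastasis lines 3, 5 and 7 and at 548, 503 and 298 CPM in CTC lines 1, 3 and 6. In primary lines 5, 7 and 8 it was at 375, 488 and 323 CPM, and in the parental line at 276 CPM. All 9 derived lines were above the parental line, a position held by 2808 of 19935 genes (14.1%), and the log2 change of derived lines against parental was 0.61 (SE 0.40, edgeR adjusted p 0.543). In metastasis against primary it was 0.09 (SE 0.29, edgeR adjusted p 0.935) and in CTC against primary 0.19 (SE 0.29, edgeR adjusted p 0.994).

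Ctnnd1 (ENSMUSG00000034101.14, chr2:84600071-84650765, minus strand) was at 302, 198 and 259 CPM in metastasis lines 3, 5 and 7, and at 137, 93.4 and 236 CPM in CTC lines 1, 3 and 6. In primary lines 5, 7 and 8 it was at 257, 292 and 204 CPM, and in the parental line at 247 CPM. CTC 1 and CTC 3 were the 2 lowest lines, and CTC 6 lay within the range of the other groups. The log2 change was -0.70 (SE 0.35, edgeR adjusted p 0.994) in CTC against primary, 0.70 (SE 0.35, edgeR adjusted p 1) in metastasis against CTC and 0.01 (SE 0.35, edgeR adjusted p 0.997) in metastasis against primary. With the fixed replicate block the first was -1.95 and the second 1.68, and both rest on CTC 3 alone of the CTC lines.

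Against the single parental line, 0 of the 7 tested genes passed, while edgeR called 4 of 19935 genes (0.0201%), and 0 of the 7 had an unadjusted p under 0.05, against 10.3% of all genes. With the random replicate block limma-voom called 12 genes and none of the 7. The log2 changes of derived lines against parental were 2.34 (SE 1.6) for Cdh3, 0.66 (SE 0.56) for Ctnnb1, -0.21 (SE 0.44) for Ctnnd1, -0.25 (SE 0.68) for Epcam, -0.89 (SE 0.88) for Cdh1 and -1.11 (SE 0.62) for Afdn. Cdh3 was below every derived line in the parental library, and the parental value of Afdn lay inside the primary range. The comparison has 1 parental library and takes its spread from the other groups.

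In metastasis against CTC, 0 of the 7 tested genes passed and edgeR called 1 of 19935 genes (0.00502%). None of the 7 had an unadjusted p under 0.05 (3.29% of all genes did) and none had groups apart (8.28% of all genes did). In metastasis against primary and in CTC against primary edgeR called 0 genes (0% in each), and 1652 (8.29%) and 809 (4.06%) genes had an unadjusted p under 0.05. With the random replicate block limma-voom called 1 gene in metastasis against primary, which was no member. Of the 7 tested genes, 2 were under that level in metastasis against primary, Afdn (p 0.000147) and Epcam (p 0.00572). In CTC against primary 3 were, Afdn (p 0.000217), Epcam (p 0.00182) and Cdh1 (p 0.0386). The median log2 change of the 7 was -1.0 in metastasis against primary, where that of all genes was 0.0057, and -1.8 in CTC against primary, where that of all genes was -0.0079.

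**Figure D2:**
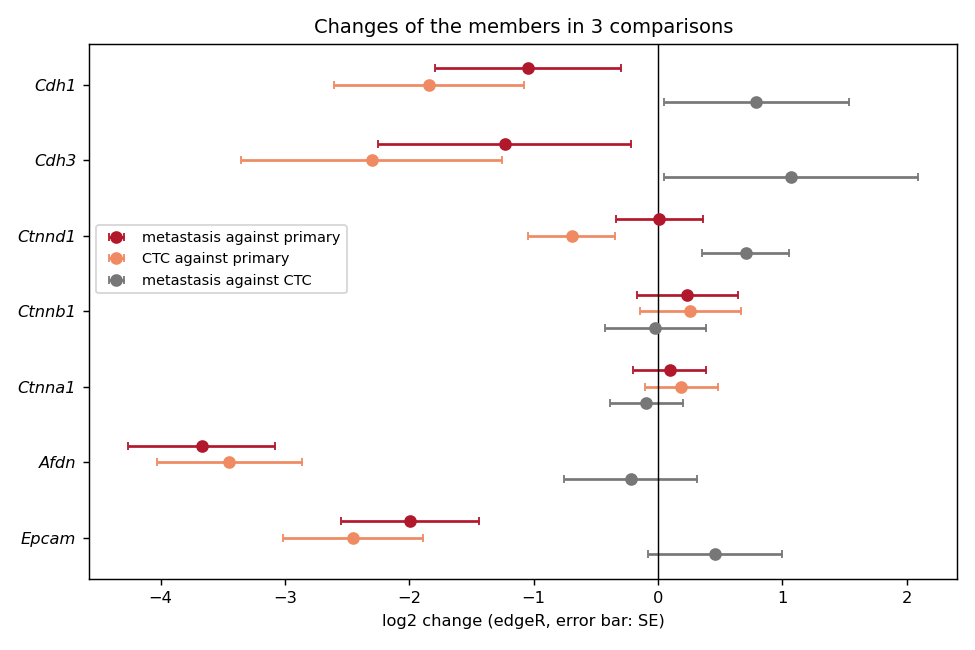
Log2 change (horizontal axis, with SE) of the 7 tested genes in metastasis against primary, CTC against primary and metastasis against CTC, by edgeR. Afdn sits at -3.67 and -3.45 against primary lines and at -0.22 between metastasis and CTC lines, and none of the points passed adjustment.

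Of Afdn, Epcam and Cdh1, leaving out single lines moved Afdn least in proportion to its size. Over the 9 fits that each left out 1 derived line, its log2 change in CTC and metastasis together against primary ran from -4.0 to -3.15, that of Epcam from -2.58 to -1.75 and that of Cdh1 from -2.03 to -0.88. The highest value of each came without primary 7, the line with the highest Afdn, Epcam and Cdh1.

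**Figure D3:**
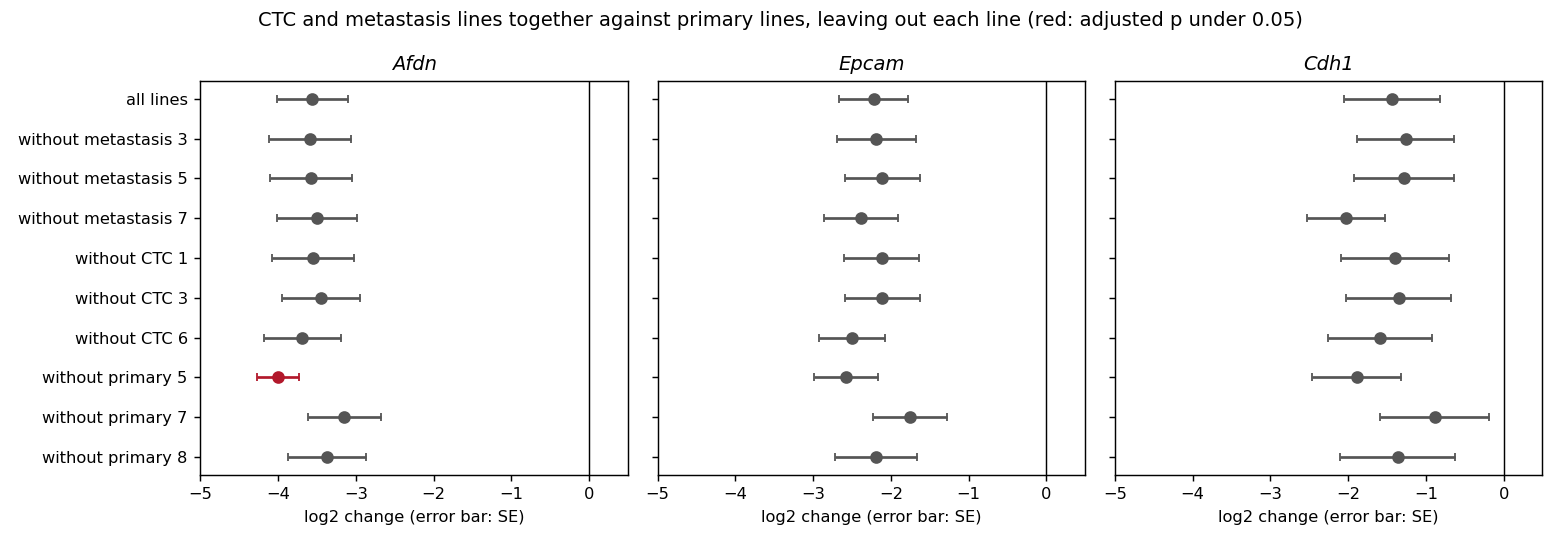
Log2 change of Afdn, Epcam and Cdh1 (horizontal axis, with SE) in CTC and metastasis lines together against primary lines, with all lines and without each derived line, red where the adjusted p was under 0.05. Afdn turned red without primary 5 (-4.0) and nowhere else in the plot.

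Across the lines, some members kept step and others did not. These correlations are over log2 CPM in 10 libraries that share a parental line and in part a number, and they are given as a description. Afdn and Epcam had a Pearson r of 0.911 (Spearman rho 0.83), and Cdh1 and Epcam 0.853 (rho 0.83). Without the 2 libraries farthest from the median of the first gene, these became 0.696 and 0.69. Cdh1 and Afdn had an r of 0.732, which became 0.38 without 2 libraries. Metastasis 7 was the line in which they parted: it had 391 CPM of Cdh1, the third highest level, and 11.3 CPM of Afdn, the second lowest. Ctnna1 and Ctnnb1 had an r of 0.85 (rho 0.794, and 0.825 without 2 libraries). Cdh1 and Ctnnb1 ran in opposite directions, with an r of -0.67 (rho -0.661, and -0.9 without 2 libraries).

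**Figure D4:**
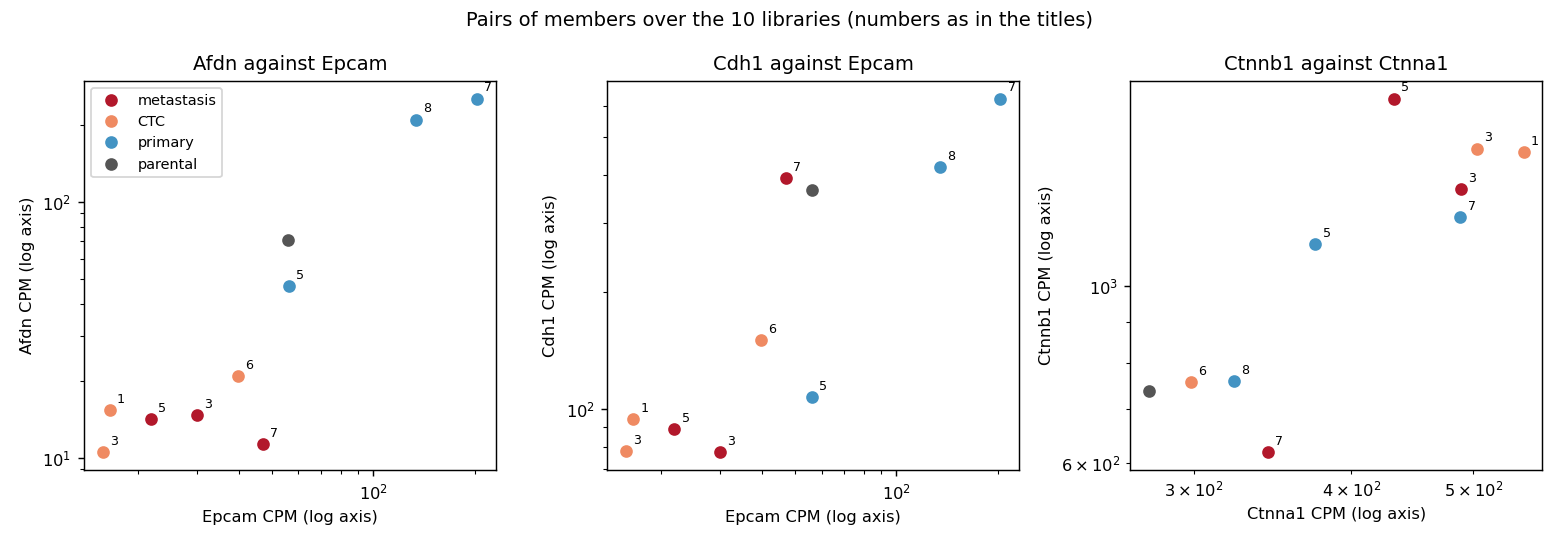
Afdn against Epcam, Cdh1 against Epcam, and Ctnnb1 against Ctnna1, each in CPM on log axes, 1 point per library with its number. Metastasis 7 has 391 CPM of Cdh1 beside 11.3 CPM of Afdn, and primary 5 and the parental line have nearly the same Epcam (56.3 and 56.0 CPM) but 107 and 366 CPM of Cdh1.

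Genes whose levels followed each member most closely over the 10 libraries were taken as the 3 with the highest Pearson r among genes of a mean log2 CPM of at least 1. For Afdn these were Bhlhe40 (0.933), Krt80 (0.929) and Sorbs2 (0.922), and for Epcam Srf (0.955), Tnik (0.936) and Cpne8 (0.925). For Cdh1 they were Bak1 (0.983), Relt (0.969) and Gfm1 (0.967), and for Cdh3 Supv3l1 (0.96), Adsl (0.945) and Serpinb9 (0.936). For Ctnna1 they were Lxn (0.979), Ctnnbip1 (0.975), which encodes a small inhibitor that binds beta-catenin, and Crip1 (0.97). For Ctnnb1 they were Dnajc10 (0.972), Tlcd1 (0.97) and Efemp2 (0.969), and for Ctnnd1 Abl2 (0.89), Scmh1 (0.878) and Atf6 (0.863).

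Per kilobase of annotated transcript, the order of the members was Ctnnb1 first, with a median of 263 CPM per kb over the 10 libraries (range 130 to 381), then Ctnna1 at 102 (67.4 to 128). Ctnnd1 at 35.8 (14.0 to 44.3), Cdh1 at 23.3 (14.2 to 113) and Epcam at 19.1 (7.3 to 89.5) overlapped in range. Afdn followed at 3.17 (1.96 to 32.5) and Cdh3 at 0.146 (0.0587 to 1.56). The ratio of the highest to the lowest line was 1.89 for Ctnna1, 2.94 for Ctnnb1 and 3.16 for Ctnnd1, against 7.93 for Cdh1, 12.3 for Epcam, 16.6 for Afdn and 26.6 for Cdh3. In primary 7 and primary 8 the per-kilobase level of Cdh1 (113 and 80.1) was above that of Ctnnd1 (43.9 and 33.2), while in metastasis 3 Cdh1 was at 14.7 and Ctnnd1 at 44.3. Cdh1 was also above Ctnnd1 in metastasis 7 (66.0 against 36.9) and the parental line (63.5 against 36.0), and close to it in CTC 3 (14.2 against 14.0). In primary 5 (19.9 against 39.5), metastasis 5, CTC 1 and CTC 6 it was below, so the order did not follow the groups.

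Ctnnd1 is known for transcripts that begin translation at different ATGs. Isoform 1 is the long form, isoform 2 and isoform 3 start further in and lack the N-terminal stretch, and isoform 1 is known as the form of mesenchymal and isoform 3 as that of epithelial cells. The bases around each start codon, read from the GENCODE M21 transcripts with the ATG in capitals, show where the 3 forms begin on the minus strand of chromosome 2.
Isoform 1 start, first base chr2:84624464, 10 transcripts: ccccttaccttcATGgacgactcagaggtg
Isoform 2 start, first base chr2:84624302, 7 transcripts: gccaactcactcATGgccaatggcaccctc
Isoform 3 start, first base chr2:84620951, 5 transcripts: actatccccaggATGcaggagccaggacag

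Transcripts with the isoform 1 start held 57.2%, 58.7% and 44.7% of the counts of coding Ctnnd1 transcripts in metastasis lines 3, 5 and 7. They held 55.6%, 52.6% and 79.6% in CTC lines 1, 3 and 6, 67.7%, 77.3% and 82.4% in primary lines 5, 7 and 8, and 73.4% in the parental line. CTC 6 thus lay among the primary lines, and the other 5 metastasis and CTC lines were below them. The difference of CTC and metastasis lines from primary lines was -17.7 percentage points (exact permutation test, two-sided, p 0.0714, 6 against 3 lines), and this grouping was chosen after the values were seen.

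Isoform 3 transcripts held 34.9%, 29.0% and 49.1% in metastasis lines 3, 5 and 7, and 22.1%, 26.9% and 17.2% in CTC lines 1, 3 and 6. Primary lines 5, 7 and 8 had 25.1%, 19.1% and 14.2%, and in the parental line 26.0%, of isoform 3. The 3 metastasis lines were the 3 highest of the 10, and CTC and primary lines overlapped (CTC and metastasis minus primary 10.4 points, exact permutation p 0.167). Isoform 2 transcripts reached 19.5% and 18.1% in CTC lines 1 and 3 and were listed at 0 in the parental line. Counts were assigned to transcripts that share most of their exons, so such shares carry an assignment error that the files do not give. Gm28635, which shares 4482 exon bases with Ctnnd1 on the same strand, was listed at 0 in all 10 libraries.

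**Figure D5:**
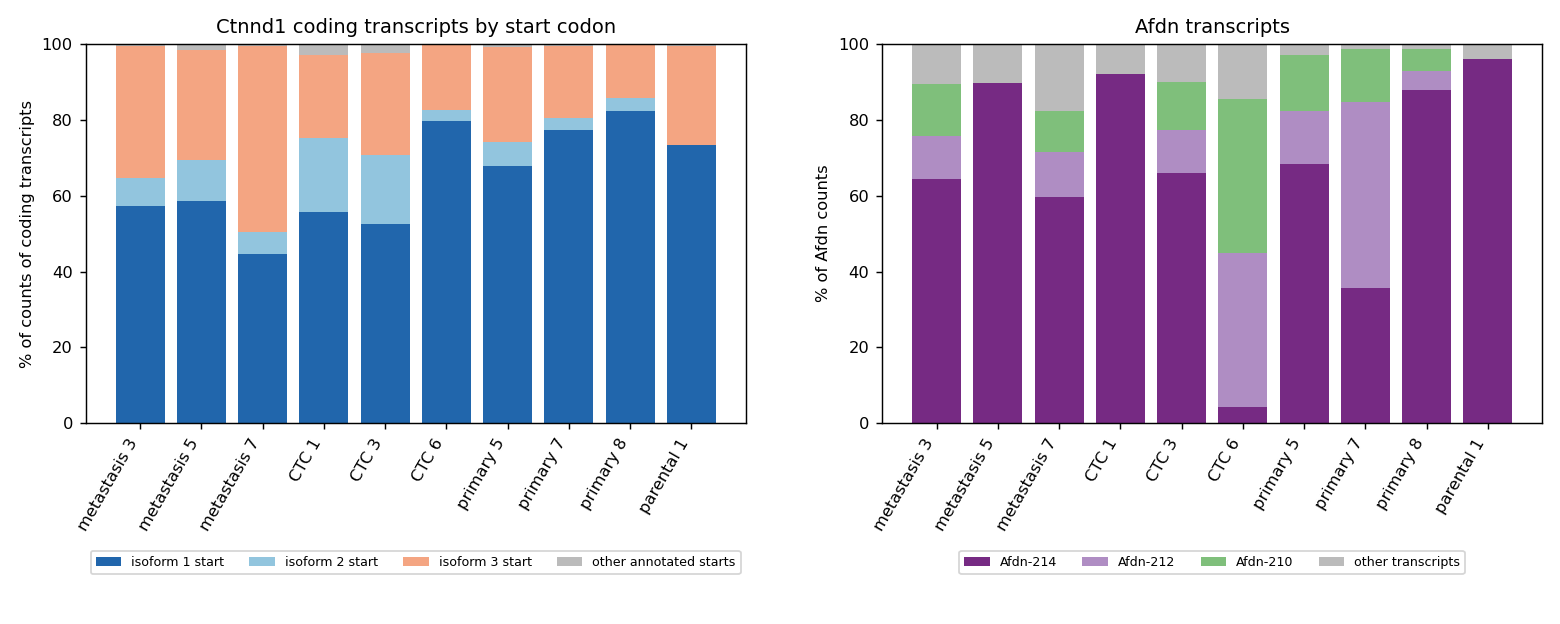
Left, the share of counts of coding Ctnnd1 transcripts by start codon, and right, the share of Afdn counts by transcript, each in percent for the metastasis, CTC, primary and parental lines. Isoform 1 is at 44.7% in metastasis 7 and at 82.4% in primary 8, and Afdn-214 ranges from 4.39% in CTC 6 to 96.0% in the parental line.

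The most abundant Afdn transcript over all lines was Afdn-214, with a coding length of 5415 bases. It held 64.4%, 89.8% and 59.8% of Afdn counts in metastasis lines 3, 5 and 7, 92.2%, 65.9% and 4.39% in CTC lines 1, 3 and 6, 68.4%, 35.6% and 87.8% in primary lines 5, 7 and 8, and 96.0% in the parental line. Afdn-212 and Afdn-210 were listed at 0 in metastasis 5, CTC 1 and the parental line, while Afdn-212 held 49.1% in primary 7. The split differed as much within groups as between them (mean share 62.7% in CTC and metastasis and 63.9% in primary lines, exact permutation p 1). Afdn-214 itself had a log2 change of -3.64 (SE 0.79) in CTC and metastasis together against primary, without passing over the 78270 transcripts tested (edgeR adjusted p 0.773). None of the 57 member transcripts tested was called in any comparison, where edgeR called 0% of all transcripts, or 0.0677% in derived lines against parental. An unadjusted p under 0.05 was found for 10 of the 57 in metastasis against primary (6.35% of all transcripts) and 4 in CTC against primary (4.09%). It was found for 10 in metastasis against CTC (4.19%) and 7 in CTC and metastasis together against primary (6.4%). Against parental it was found for 7 (7.56%). Transcripts of 1 gene share exons, so these counts are not of separate results.

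Most Epcam counts of every library fell on Epcam-204, whose annotated start (17:87636682) lies downstream of the window shown above. Its share was 99.8%, 99.5% and 99.3% in metastasis lines 3, 5 and 7, 95.2%, 99.8% and 99.7% in CTC lines 1, 3 and 6, 99.0%, 81.7% and 86.5% in primary lines 5, 7 and 8, and 99.8% in the parental line. Epcam-201, 1 of 4 transcripts annotated to start inside that window (17:87635979), had 2765 counts in primary 7, 1307 in primary 8 and 58 in CTC 1, and was listed at 0 in the other 7 libraries. Epcam-201 and Epcam-204 have a coding length of 945 bases. Epcam-202 and Epcam-203, shorter transcripts that also start inside the window, did not pass in CTC and metastasis together against primary (edgeR adjusted p 0.773 for each). The share of Epcam-204 averaged 98.9% in CTC and metastasis lines and 89.0% in primary lines (exact permutation p 0.0476, 0.286 after Benjamini-Hochberg adjustment over the 6 shares tested). This and the other tests of shares treated all 9 derived lines as exchangeable and did not take account of shared title numbers.

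Transcripts annotated for nonsense-mediated decay, a pathway that degrades messages with an early stop, took a sizeable part of 2 catenins. Ctnna1-210 held 5.74%, 31.3% and 28.5% of Ctnna1 counts in metastasis lines 3, 5 and 7, 7.75%, 9.67% and 31.9% in CTC lines 1, 3 and 6, 35.1%, 13.5% and 27.2% in primary lines 5, 7 and 8, and 31.1% in the parental line. Every derived group had lines below 14% and above 27%. Ctnnb1-208 held 36.2%, 36.1% and 17.7% in metastasis lines 3, 5 and 7, 47.2%, 30.9% and 26.9% in CTC lines 1, 3 and 6, 32.9%, 32.9% and 18.1% in primary lines 5, 7 and 8, and 29.2% in the parental line. Metastasis 7 and primary 8, low in this transcript, were also the lines with the lowest and the third lowest Ctnnb1 of the derived lines. For the shares of the leading transcripts of Ctnna1, Ctnnb1, Cdh1 and Ctnnd1 the exact permutation p of CTC and metastasis against primary lines was 0.381, 0.524, 0.714 and 0.143.

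Other junction genes, in lists drawn up with earlier results of these data known, were read from the same fit. Of the 18 nectin and afadin partner genes, all tested, 0 were called in CTC and metastasis together against primary, with 4 higher, 14 lower and a median log2 change of -0.21 beside -0.013 over all genes. Nectin2, an afadin-bound receptor, had a log2 change of -0.86 (SE 0.33, edgeR adjusted p 0.633), and Pvr, its nectin-like relative, had -0.86 (SE 0.285, edgeR adjusted p 0.623). The junction receptor F11r was at -1.27 (SE 0.61, edgeR adjusted p 0.651). Of the 9 tested catenin relatives and alpha-catenin binders (of 11 listed), 0 were called, 3 were higher and 6 lower, with a median of -0.12. Plakoglobin (Jup), which can take the place of beta-catenin on cadherins, was at -0.44 (SE 0.29, edgeR adjusted p 0.688), and vinculin (Vcl), which binds alpha-catenin, at -0.40 (SE 0.26, edgeR adjusted p 0.686).

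Of the 18 other cadherins, 6 passed the filter and 0 were called, with 3 higher and 2 lower. Cdh17 was the 1 member with an unadjusted p under 0.05 (log2 change -2.43, SE 0.47, edgeR adjusted p 0.504), and it was chosen here after its values were seen. It was at 0.484, 0.481 and 0.259 CPM in metastasis lines 3, 5 and 7, 0.493, 1.11 and 1.43 CPM in CTC lines 1, 3 and 6, 5.77, 2.5 and 2.14 CPM in primary lines 5, 7 and 8, and 0.198 CPM in the parental line. Cdh5 of endothelium was at most 1.1 CPM and the mesenchymal Cdh11 at most 0.245 CPM in any line. Of the 14 tested genes of Epcam relatives, partners and proteases (of 15 listed), 0 were called, 9 were higher and 5 lower, with a median of 0.28. The claudin Cldn7, an Epcam partner, had a log2 change of -2.09 (SE 0.68, edgeR adjusted p 0.623), against 0.63 (SE 0.34, edgeR adjusted p 0.669) for Adam10, which encodes a protease that cleaves Epcam.

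Among the mammary epithelial markers, 5 of 6 were lower and 0 were called in the same comparison, with a median log2 change of -2.0. Cldn3 was at -2.69 (SE 0.63, edgeR adjusted p 0.552) and Krt7 at -1.99 (SE 0.50, edgeR adjusted p 0.615). The summed level of the 4 fibroblast markers was 13.6 to 284 CPM in metastasis, 10.9 to 142 CPM in CTC and 4.88 to 61.8 CPM in primary lines, and 5.1 CPM in the parental line. Most of it was Pdgfra, while Col1a1 reached 2.32 CPM (primary 7), Col3a1 0.325 CPM and Dcn 12.4 CPM (both metastasis 5). Pdgfra was at 126, 269 and 11.3 CPM in metastasis lines 3, 5 and 7. CTC lines 1, 3 and 6 had 72.3, 141 and 10.1 CPM. In primary lines 5, 7 and 8 it was at 58.1, 4.84 and 4.05 CPM, and in the parental line at 4.45 CPM. The lines highest in Pdgfra, metastasis 3 and 5, CTC 1 and 3 and primary 5, were also those lowest in Cdh1. The part of these epithelial and fibroblast markers in the levels of Afdn, Epcam and Cdh1 was not tested.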

How the data were processed

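The authors deposited estimated counts per gene and per transcript, as unscaled whole numbers. The submitters' processing notes list StringTie 2.0.3, HISAT2 2.1.0, DESeq2 1.26.0 and the build GRCm38. PolyA RNA and paired-end reads are given in the labels. The annotation release and the use of strand are not given in the sources used here. Members were matched by symbol, and positions and transcripts come from GENCODE M21 (GRCm38). Exons of Ulk4 (with Ctnnb1), Tcte2 (with Afdn) and Lrrtm2 (with Ctnna1) overlap on the other strand. Assembled transcripts tied to no gene, 17127 of 72544 entries, took 19.7% to 22.8% of the counts of a library and were left out. Reads of a named gene may sit among them.

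All 10 libraries entered 1 edgeR 4.0.16 fit (R 4.3.3) of 4 groups: TMM, filterByExpr, quasi-likelihood test, Benjamini-Hochberg over all tested genes, threshold 0.05, common biological coefficient of variation 0.606. SE is the absolute log2 change over the square root of F. The code was tested on simulated data with a far smaller spread than these libraries have. That test checks the code and does not show the power or the false calls in these data. Transcripts (1 entry filled in 1 column only left out) were fitted likewise. Alternatives were RLE factors, other filters, all entries, DESeq2 1.42.0, limma-voom 3.58.1, replicate blocks, the compared groups alone and leaving out each line.

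Members, gene lists and tests were chosen with earlier results of these data known. Named genes are the members, up to 3 genes of each list with the smallest p and a mean log2 CPM of at least 1, the 3 genes most like each member, Erbb2 and the leading host marker; 1 gene that this rule names is not reported here. Numbers in the titles are shared by metastasis and primary lines 5 and 7 and by metastasis and CTC line 3. The labels do not say what these numbers stand for. Deviations from the group means correlated at 0.319, 0.12 and 0.406 in these pairs (median of other pairs -0.0491). That the numbers pair the lines is an assumption that was not tested. The random replicate block put the correlation of lines with the same number at 0.484. The main edgeR fit took no account of this assumed pairing, so its SE and p-values treat all lines as independent. Replicate blocks entered only as alternatives.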

Additional observations from a re-analysis of the deposited data

How the results depend on the processing

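Of 616 recomputed log2 changes of the 7 tested genes, 580 kept their direction and their side of the threshold, 7 newly passed (given with Afdn and Epcam) and 29 changed sign, all of genes that had not passed; the cause was not tested. In metastasis against primary, the random replicate block gave -0.00989 (Ctnna1), -0.00818 (Ctnnb1) and -0.0278 (Ctnnd1), and the fixed replicate block -0.143, -0.18 and -0.27. In metastasis against CTC, Afdn was 0.0798 and 0.466 with these blocks, Cdh1 -0.0253 with the fixed block, and Ctnnb1 0.0158 with the stricter filter and 0.00385 with DESeq2. The fixed block also gave -0.0832 for Ctnna1 in CTC against primary, and -0.113 (Ctnna1) and -0.087 (Ctnnb1) in CTC and metastasis together against primary. In that last comparison it moved Cdh1 to -0.456, Cdh3 to -1.08 and Ctnnd1 to -1.11. The fixed block leaves 1 residual degree of freedom, and no CTC number recurs in the primary lines. CTC 1, CTC 6 and primary 8 share their number with no other line, so they do not inform its changes. Its metastasis against CTC change thus rests on the lines numbered 3, and its CTC against primary change is reached through them. The block changed no call of the 7 genes, and the fixed block and the compared groups alone give nothing separate against parental.

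Leaving out each line gave, in metastasis against primary, -2.9 to 0.176 (Cdh3), -0.027 to 0.277 (Ctnna1), -0.092 to 0.555 (Ctnnb1) and -0.139 to 0.159 (Ctnnd1). In metastasis against CTC it gave -0.371 to 1.16 (Cdh1), -0.6 to 1.55 (Cdh3), -0.314 to 0.0725 (Ctnna1), -0.35 to 0.296 (Ctnnb1) and -0.438 to 0.0541 (Afdn). Differences of leading transcript shares ran from -15.4 to 10.7 points (Afdn), -1.96 to 1.83 (Cdh1) and 6.17 to 14.8 (Epcam), and that of the Ctnnd1 isoform 1 start from -22.0 to -14.4. The Epcam share kept a p under 0.05 in 1 of 9 such fits. For the Ctnnd1 isoform 1 start the exact permutation p ran from 0.0357 to 0.214, under 0.05 in 1 of 9 fits. The fits without a primary line could not have gone under 0.05, as too few primary lines remain for so small an exact p. The Ctnnd1 start grouping and its alternatives were chosen after seeing the data. Shares from Ensembl transcripts alone were not a separate run, since no assembled transcript is tied to a gene.

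Genes called in metastasis against primary were 0 with edgeR, 1 with the stricter filter, 1 with the random replicate block, 130 with DESeq2 and 0 to 1 without single lines. In CTC against primary DESeq2 called 68. In metastasis against CTC the 1 call (Pelo) became 0 without a filter, with all entries, with the fixed replicate block and in the groups alone, 22 with DESeq2 and 0 to 1 without single lines. For CTC and metastasis together against primary, limma-voom called 2 with and without the replicate block, DESeq2 148, and edgeR 0 to 3 without single lines. Against parental the 4 calls became 1 with the stricter filter, 42 with all entries, 610 with DESeq2, 23 with limma-voom and 12 with the replicate block.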

Other observations

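Repressors of Cdh1 were measured in the same fit. Of the 10 listed, all tested, 0 were called in CTC and metastasis lines together against primary lines, with 7 higher and 3 lower and a median log2 change of 0.25. Twist1 had a log2 change of 0.83 (SE 0.34, edgeR adjusted p 0.635), Tcf4 1.25 (SE 0.59, edgeR adjusted p 0.651) and Tcf3 0.45 (SE 0.405, edgeR adjusted p 0.766). Twist1 was at 92.3, 49.2 and 39.4 CPM in metastasis lines 3, 5 and 7, 78.1, 93.3 and 54.3 CPM in CTC lines 1, 3 and 6, 48.7, 34.8 and 30.4 CPM in primary lines 5, 7 and 8, and 40 CPM in the parental line. The metastasis and primary lines overlapped.

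Beta-catenin partners and targets had 10 higher and 3 lower of 13 tested (of 16 listed), 0 called and a median of 0.42. Notum, which encodes a secreted Wnt inhibitor, had a log2 change of 3.10 (SE 1.1, edgeR adjusted p 0.623). It was at 30.1, 13.2 and 4.57 CPM in metastasis lines 3, 5 and 7, 11.6, 28.1 and 1.68 CPM in CTC lines 1, 3 and 6, 3.81, 1.03 and 0.371 CPM in primary lines 5, 7 and 8, and 0.425 CPM in the parental line. Tcf7l1, a nuclear partner of beta-catenin, was at 0.93 (SE 0.50, edgeR adjusted p 0.663) and Bcl9, a coactivator, at 0.83 (SE 0.55, edgeR adjusted p 0.688). Of the 15 genes of the destruction complex that degrades beta-catenin, all tested, 0 were called, 11 were higher and 4 lower, with a median of 0.14. Of 19 tested regulators of E-cadherin turnover (of 20 listed), 0 were called, 11 were higher and 8 lower, with a median of 0.091. The receptor Met had a log2 change of -0.86 (SE 0.33, edgeR adjusted p 0.63), Numb, an endocytic adaptor, 1.18 (SE 0.54, edgeR adjusted p 0.651) and Pip5k1c, a phosphoinositide kinase, 0.51 (SE 0.24, edgeR adjusted p 0.651).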
